A study of Mus musculus with 22 samples.

Results

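The genes described are 9 genes that take up, make, carry, sense or break down retinoic acid, the active form of vitamin A: Cyp26a1, Cyp26b1, Cyp26c1, Aldh1a1, Aldh1a2, Crabp1, Crabp2, Stra6 and Rarb. DNA methylation was measured by enhanced reduced representation bisulfite sequencing (ERRBS), which reads CpG-rich parts of the genome and scores each covered CpG cytosine by the share of reads in which it resisted bisulfite conversion. A CpG cytosine counted as a member when it was covered by at least 10 reads in all 22 mice and lay in the body of 1 of these genes or within 2000 bp of 1 of its RefSeq transcription start sites (TSS). Of the 1140639 positions covered in all mice, 619 were members. The strands of a CpG were listed apart, and the 619 positions made up 504 CpGs. Cyp26a1 held 93 of them, Cyp26b1 153, Cyp26c1 84, Aldh1a2 190, Rarb 53, Crabp1 32, Aldh1a1 6, Crabp2 4 and Stra6 4.

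The cases were F1 females of the FVB strain, heterozygous for the MMTV-PyVT (PyMT) transgene, in which a viral promoter active in mammary epithelium drives the polyoma middle T antigen. The controls were age-matched FVB females without the transgene. Hyperplasia was sampled at week 6 (2 PyMT mice), adenoma/MIN (mammary intraepithelial neoplasia) at week 8 (3 mice), early carcinoma at week 10 (3 mice) and, at week 12, late carcinoma with metastases in the lung (2 mice), with 3 FVB mice at each week. Bulk tumors and whole glands were taken, the study removed outlier libraries before deposit, and no further treatment was given. Each library held 1314077 to 1435757 positions at a mean coverage of 60.2 to 79.2 reads. FVB week 8 replicate 2 stood apart from the other libraries on the second principal component, and PyMT week 8 replicate 1 had the lowest share of methylated reads of all libraries (18.98%, against up to 27.7%), so week 8 counts are given with and without each. Over the 8 markers of luminal and general epithelium the mean promoter methylation was 3.70 to 5.62% in PyMT mice and 9.52 to 12.6% in FVB mice, with Cldn4 and Krt18 called lower in PyMT. The single basal marker measured, Krt5, was also called lower. Of 5 adipocyte markers (list mean 25.6 to 31.3% in PyMT, 30.2 to 34.8% in FVB mice) Cidec was called lower, and among leukocyte markers Spi1 was called higher. Of 4 endothelial markers (37.7 to 42.2%, 27.9 to 34.2%) Esam and Pecam1 were called higher and Cdh5 lower, and none of 3 fibroblast markers was called (2.46 to 5.82%, 1.77 to 4.80%). In bulk tissue a change in the share of a cell type and a change of methylation within cells cannot be told apart, and the part of cell makeup in the differences below was not tested.

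Retinol enters cells through the membrane receptor Stra6 and is oxidized to retinal and then, by the Aldh1a dehydrogenases, to retinoic acid. Crabp1 and Crabp2 bind retinoic acid in the cytoplasm, the nuclear receptor Rarb and its relatives turn it into transcription, and the Cyp26 enzymes hydroxylate it for clearance. The pathway governs epithelial differentiation, Rarb and Cyp26a1 are themselves induced by retinoic acid through response elements in their promoters, and methylation of the RARB promoter has long been studied in human breast cancer. Methylation of a CpG-rich promoter usually goes with a silent gene, whereas methylation inside genes has no such fixed reading, and no expression was analysed here.

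The sequences that carry the differences are printed first, from the mm10 reference, 5′ to 3′ on the strand of the gene. Capitals mark the CpGs that were measured in all mice. Those of Cyp26c1 gained methylation, and they come from its upstream region, exon 1 and intron 3.
Cyp26c1 upstream, first position (chr19:37684966-37685007, plus strand): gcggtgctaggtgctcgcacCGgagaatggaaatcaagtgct
Cyp26c1 upstream, second position (chr19:37685001-37685042, plus strand): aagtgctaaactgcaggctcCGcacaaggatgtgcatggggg
Cyp26c1 exon 1, coding (chr19:37685724-37685801, plus strand): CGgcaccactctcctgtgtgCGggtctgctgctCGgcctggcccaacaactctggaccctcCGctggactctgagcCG
Cyp26c1 intron 3 (chr19:37687530-37687797, plus strand): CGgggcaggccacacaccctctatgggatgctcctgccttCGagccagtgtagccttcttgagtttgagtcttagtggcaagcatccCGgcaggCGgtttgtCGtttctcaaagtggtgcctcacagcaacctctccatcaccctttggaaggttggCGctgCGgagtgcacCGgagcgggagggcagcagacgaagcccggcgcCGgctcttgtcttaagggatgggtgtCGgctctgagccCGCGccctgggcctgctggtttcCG
The stretch of Crabp2 that gained methylation lies in intron 3.
Crabp2 intron 3 (chr3:87952860-87952951, plus strand): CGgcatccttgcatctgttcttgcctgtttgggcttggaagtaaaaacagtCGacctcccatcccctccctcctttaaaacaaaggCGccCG
The stretches of Rarb and Aldh1a2 show a gain beside the internal Rarb start site and losses inside both genes.
Rarb exon 1 of the internal start, coding (chr14:16574872-16574979, minus strand): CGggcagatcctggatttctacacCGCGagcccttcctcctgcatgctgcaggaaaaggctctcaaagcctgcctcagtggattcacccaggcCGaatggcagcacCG
Rarb single position upstream of the internal start (chr14:16579924-16579965, minus strand): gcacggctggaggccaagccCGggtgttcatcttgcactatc
Rarb intron 2 (chr14:16724208-16724316, minus strand): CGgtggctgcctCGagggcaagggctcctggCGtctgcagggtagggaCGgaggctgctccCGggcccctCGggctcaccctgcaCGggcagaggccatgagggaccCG
Aldh1a2 intron 12 (chr9:71288910-71289006, plus strand): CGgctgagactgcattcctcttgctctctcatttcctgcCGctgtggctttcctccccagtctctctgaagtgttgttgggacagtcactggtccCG
The promoters of Rarb (internal start) and Cyp26a1, upstream of the TSS, are shown because each holds the direct repeat of a retinoic acid response element, the letters GNTCA followed after 6 bases of any kind by GNTCA again, searched on both strands and here in capitals.
Rarb promoter (chr14:16575477-16575590, minus strand): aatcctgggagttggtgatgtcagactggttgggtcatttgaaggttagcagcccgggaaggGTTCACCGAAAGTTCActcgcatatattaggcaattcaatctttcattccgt
Cyp26a1 promoter (chr19:37697714-37697807, plus strand): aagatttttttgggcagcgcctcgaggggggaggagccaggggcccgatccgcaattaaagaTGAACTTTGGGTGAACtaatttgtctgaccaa
The repeat was found in 0.861% of 32851 RefSeq promoter windows of GRCm38.p6 (250 bases before to 50 after a TSS) and in 2 of the 12 windows that matched 8 of the 9 genes.

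Cyp26c1, an enzyme of retinoic acid clearance, held the most hyper-DMCs (called gains at single positions, defined with the counts) and the largest promoter difference. The mean level over the 19 positions within 2000 bp of its TSS was 56.35 and 55.35% in the PyMT mice at week 6, 57.39, 55.79 and 60.63% at week 8, 65.23, 67.09 and 64.60% at week 10, and 69.37 and 66.16% at week 12. The 12 FVB mice lay between 39.4 and 45.6% with a median of 42.3%. Every PyMT mouse therefore lay above every FVB mouse at each stage. The difference, averaged over the 4 stages, was 19.6 ± 0.942 points (SE over mice, limma, adjusted p = 4.25e-10). An exact permutation test of the PyMT and FVB labels within week gave p = 2.5e-05, two-sided, the smallest that its 40000 arrangements allow. A promoter was called when its adjusted p was under 0.05 and its difference at least 5 points. Of 16407 promoters in the genome, 3.98% were called higher and 6.49% lower in PyMT. Among the 5 members with at least 3 promoter positions, Cyp26c1 was the 1 called.

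The promoter gap of Cyp26c1 was wider at the carcinoma stages than before. The 2000 bp window takes in part of the intron 3 stretch printed above, whose own change is given below. It was 13.9 points at hyperplasia, 14.7 at adenoma/MIN, 24.1 at early carcinoma and 25.5 at late carcinoma. The change from the earlier to the carcinoma stages was 10.6 ± 1.88 points (limma interaction contrast, adjusted p = 0.0209), a contrast in which 0.390% of promoters were called higher and 0.0244% lower. The limma call was lost without PyMT week 12 replicate 1 (9.77 points, adjusted p = 0.0749) and without PyMT week 6 replicate 2 (10.3 points, adjusted p = 0.0550). It was also lost with pooled reads (12.7 points, limma, adjusted p = 0.105), and within 500 bp of the TSS the change was 6.29 points (limma, adjusted p = 0.381). The FVB level was 42.0 ± 2.30% at week 6 and 42.2 ± 3.01% at week 12 (SD, n = 3 each), and with limma none of the 16407 promoters was called between early and late FVB weeks, against 901 with an unadjusted p under 0.05.

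Within Cyp26c1 the gain was not even along the gene. Positions were joined into CpG clusters where gaps were at most 100 bp and at least 3 positions were present, and of 84563 clusters in the genome 10.5% were called higher and 25.6% lower in PyMT over the 4 stages. Of the 41 clusters of the members 6 were called higher and 7 lower, and their median difference was 0.0 points, against -0.149 over all clusters. Cyp26c1 held 6 of the 41, and 4 of its 6 were called higher. The cluster in exon 1 (chr19:37685724-37685801, 6 positions, coding) stood at 60.5 to 73.4% in FVB mice and at 82.01 to 93.47% in PyMT mice, with no overlap. Its difference was 22.02 ± 1.51 points (limma, adjusted p = 2.07e-09) and was already 17.9 points at hyperplasia. The most changed of its positions, 121 bp after the TSS, rose from a FVB median of 58.4% to a PyMT median of 84.7%.

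The cluster in intron 3 (chr19:37687530-37687797, 18 positions, centred 1984 bp after the TSS) started near the control level and moved away from it. The PyMT mice read 30.94 and 24.92% at week 6, 39.92, 40.39 and 40.09% at week 8, 48.72, 52.53 and 47.40% at week 10, and 55.81 and 59.29% at week 12. The FVB mice lay between 19.8 and 28.2% over all weeks. At week 6 the 5.56-point difference did not pass the test (limma, adjusted p = 0.301) and 1 PyMT mouse lay inside the FVB range. It was 15.9 points at week 8, 24.0 at week 10 and 34.7 at week 12, all past the test (limma, adjusted p of 0.00178, 5.38e-05 and 7.29e-06). The change from the earlier to the carcinoma stages, 18.6 ± 2.43 points, did not pass after adjustment over all clusters (limma, adjusted p = 0.103), where 0.0118% of clusters were called higher and 0.00591% lower. Part of this cluster lies within 2000 bp of the TSS and also enters the promoter mean, so the widening here and at the promoter are not independent results. From week 6 to week 12, 4, 11, 16 and 16 of its 18 positions were hyper-DMCs. The most changed of them, 1944 bp after the TSS, read 75.0 to 91.9% in PyMT mice and 32.3 to 48.8% in FVB mice, and was called at every stage.

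**Figure D1:**
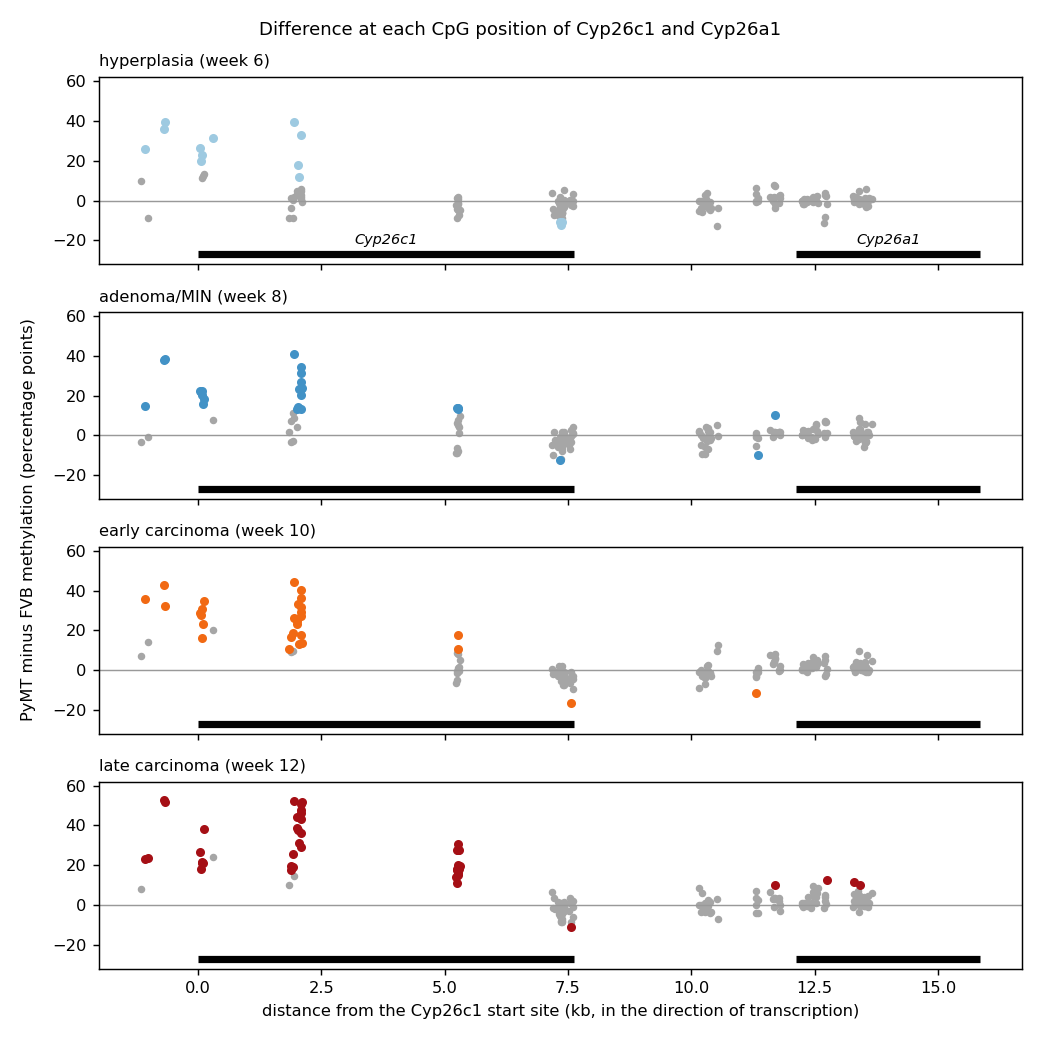
PyMT minus FVB methylation (percentage points) at each CpG position of Cyp26c1 and Cyp26a1, against the distance from the Cyp26c1 TSS in kb, with 1 panel per stage. Colored points are called positions, grey points are not, and black bars are the gene bodies. Gains reach 34.7 points on average in the intron 3 cluster at week 12 and are present in exon 5 at that stage, whereas 87 of the 93 positions of Cyp26a1 are called at no stage.

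The next cluster along the gene, in exon 5 (chr19:37690903-37690982, 13 positions), moved at late carcinoma. It read 40.23 and 38.52% in the PyMT mice of week 12, against 17.70, 16.80 and 22.49% in the FVB mice of that week, a difference of 20.4 ± 4.01 points (limma, adjusted p = 0.00684), and all 13 positions were hyper-DMCs. At weeks 6, 8 and 10 its differences of -2.04, 3.21 and 3.98 points did not pass. Its call over the 4 stages (6.38 points, limma, adjusted p = 0.0433) was lost in 16 of the 22 fits that left out 1 mouse, with differences of 5.06 to 7.70 points over the 22. The cluster centred 1084 bp upstream of the TSS was called at 13.2 ± 2.84 points over the 4 stages, with 1 high control, FVB week 8 replicate 2 at 51.6%. It was 14.5 points without that mouse. Clusters 7306 and 7640 bp after the TSS, partly in exon 6, were not called (-2.79 and -1.74 points). The loss in the first passed the adjusted test but not the limit of 5 points (limma, adjusted p = 0.00283). In the second 9 of the 22 positions were members. Over the 65 body positions, more than 2000 bp from the TSS, the difference was 3.66 ± 0.668 points over the 4 stages and 9.88 points at late carcinoma, the 1 stage at which the body was called. The 3′ clusters and the exon 5 and upstream clusters were picked for description with their values known.

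A pair of upstream positions outside any cluster, also chosen with their values known, gained as much as the most changed positions inside clusters. The position 694 bp before the TSS (chr19:37684986) read 79.4 to 100% in PyMT mice and 27.0 to 62.3% in FVB mice, and its difference was 36.1, 37.9, 42.6 and 52.6 points from hyperplasia to late carcinoma. The position 659 bp before the TSS read 57.3 to 88.0% against 12.7 to 52.0%, with 39.3, 38.2, 32.4 and 51.7 points. Both were hyper-DMCs at all stages, and at both every PyMT mouse lay above every FVB mouse.

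Cyp26a1, the neighbouring clearance gene whose body starts 4500 bp beyond the end of Cyp26c1 on the same strand, stayed low. Its 93 positions averaged 2.33 to 3.95% in FVB mice and 2.30 to 4.92% in PyMT mice, and 89 of the 93 were under 10% in controls. The promoter difference of 0.875 ± 0.193 points passed the adjusted test but not the limit of 5 points (limma, adjusted p = 0.00285). At late carcinoma it was 2.03 points, against 25.5 for Cyp26c1. The clusters next to its TSS, 438 bp before and 272 bp after, gained 2.46 and 1.48 points, and 87 of the 93 positions were called at no stage. The nearest measured position lay 136 bp from the middle of its response element, so the element itself was not read.

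The starting sequence and level of these neighbours were unlike. In the 1000 bp around the TSS the observed to expected CpG ratio was 0.329 for Cyp26c1 and 0.728 for Cyp26a1. The positions within 500 bp of the TSS averaged 65.5% in FVB mice for Cyp26c1 (7 positions) and 1.06% for Cyp26a1 (31 positions). At week 12 the PyMT mice averaged 90.1% and 3.74% over the same positions. Whether sequence or control level had a part in the unlike gains was not tested.

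Cyp26b1, the clearance enzyme with most CpGs measured in its body, changed little. No position within 2000 bp of its TSS was covered in all mice. Its 153 body positions averaged 14.3 to 16.7% in FVB mice and 13.8 to 16.6% in PyMT mice, a difference of -0.773 ± 0.256 points (limma, adjusted p = 0.0548). The CpG-rich introns 1 and 2 accounted for most of them, and no mouse of either group exceeded 4.31% in any of their 6 clusters. One cluster of 6 positions in the 3′ UTR (chr6:84572177-84572327) was called lower, at -11.1 ± 1.55 points (limma, adjusted p = 2.02e-05), with PyMT mice at 59.9 to 70.8% and FVB mice at 68.0 to 83.7%. In that cluster 8 of the 10 PyMT mice lay below all FVB mice. By stage it was called at adenoma/MIN (-11.87 points) and early carcinoma (-17.63 points). The differences at hyperplasia (-6.055 points, limma, adjusted p = 0.312) and late carcinoma (-8.648 points, adjusted p = 0.0716) did not pass.

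Crabp2, which carries retinoic acid to the nuclear receptors, had the largest cluster difference of the set over the 4 stages, although at week 12 alone Cyp26c1 intron 3 (34.7 points) exceeded it. Its 4 positions all lie in intron 3, 4212 bp after the TSS (chr3:87952860-87952951). They averaged 57.31 and 47.65% in the PyMT mice at week 6, 62.84, 51.38 and 59.88% at week 8, 63.19, 63.16 and 64.21% at week 10, and 65.58 and 61.42% at week 12. The FVB mice lay between 25.6 and 40.0%, below every PyMT mouse. The difference was 28.2 ± 2.10 points (limma, adjusted p = 1.85e-08 among clusters; exact permutation p = 2.5e-05), and it was 19.6 points at hyperplasia, 27.0 at adenoma/MIN, 33.5 at early carcinoma and 32.9 at late carcinoma. The 4 CpGs did not share it evenly. The CpG at 87952951 gained 29.97 to 54.6 points and those at 87952860 and 87952947 gained 24.2 to 38.9, whereas the one at 87952912 differed by -0.285 to 12.0 points and was a hyper-DMC only at both carcinoma stages. No position near the Crabp2 TSS was covered in all mice, so its promoter was not read.

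**Figure D2:**
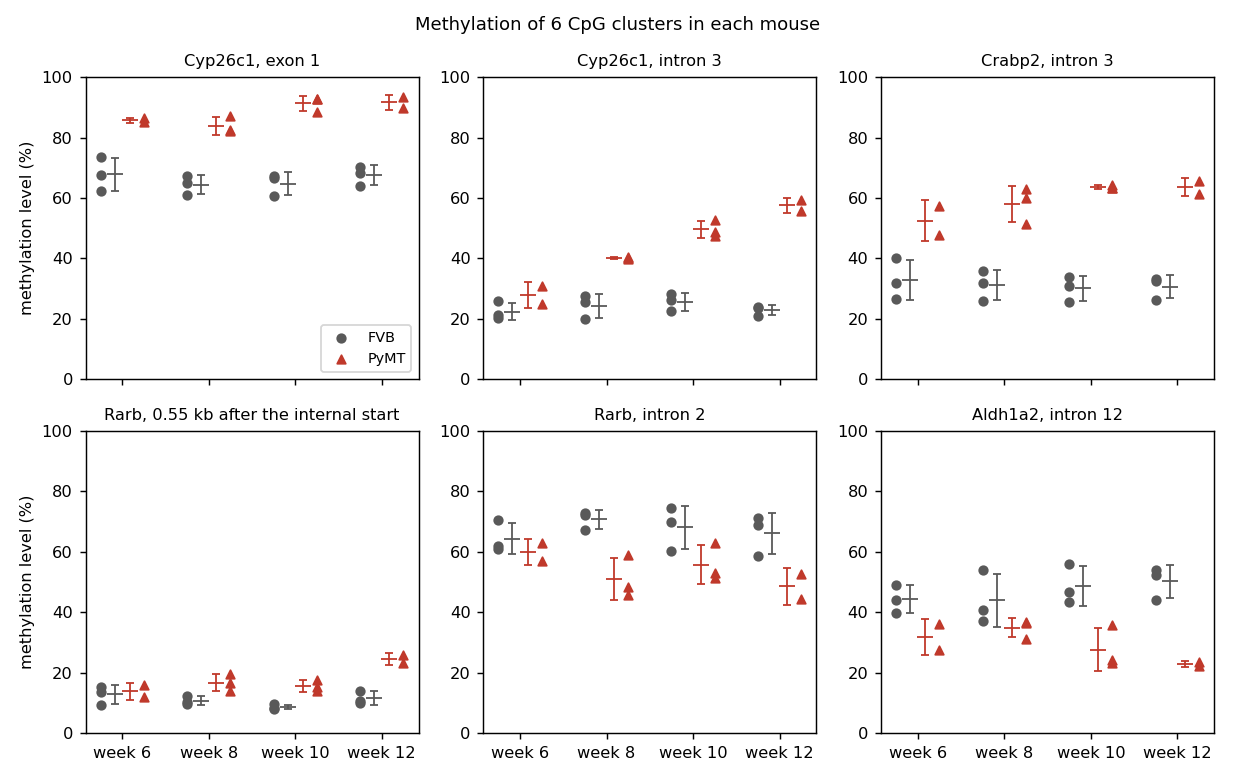
Methylation level (%) of 6 CpG clusters in each mouse by week, with FVB mice as grey circles and PyMT mice as red triangles, and the mean and SD of each group beside the points. Crabp2 and Cyp26c1 exon 1 are apart from week 6 on, Cyp26c1 intron 3 goes from 27.9% to 57.6% in PyMT between weeks 6 and 12, and the Rarb and Aldh1a2 introns lie lower in PyMT.

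Rarb, the retinoic acid-inducible receptor, changed in both directions. Its transcripts begin at a distal TSS and at an internal TSS (chr14, position 16575476, minus strand). At the internal start the response element stayed unmethylated. The element (chr14:16575513-16575528) contains 1 CpG, which is 1 of 3 measured positions 34 to 60 bp before the TSS, and all 3 read 0% in all 22 mice. At the CpG in the element 0 of 535 reads were methylated, which allows a level of up to 0.561% (counting error only). Those 3 positions had a mean coverage of 24.3 reads, the shallowest cluster named.

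Methylation rose just inside the same transcript. The 5 positions centred 550 bp after the internal TSS (chr14:16574872-16574979), in the coding part of its first exon and intronic in longer transcripts, read 15.82 and 11.75% in PyMT mice at week 6, 19.56, 16.39 and 13.87% at week 8, 17.68, 15.16 and 13.79% at week 10, and 23.10 and 25.76% at week 12. FVB mice read 8.03 to 15.2%. At week 6 the groups overlapped (1.06 points, limma, adjusted p = 0.835), and at week 12 they did not (12.9 ± 2.03 points, limma, adjusted p = 0.00321). Over the 4 stages the difference was 6.72 ± 0.964 points (limma, adjusted p = 1.99e-04). This cluster was chosen after its values were seen. Over all 12 promoter positions of Rarb the difference was 2.51 ± 0.507 points and was not called, and over the positions within 500 bp of the TSS it was -0.392 points.

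The body of Rarb lost methylation. Its 41 positions averaged 82.2 to 86.5% in FVB mice and 74.5 to 78.5% in PyMT mice, with no overlap, a difference of -8.38 ± 0.664 points (limma, adjusted p = 3.17e-08; exact permutation p = 2.5e-05). The difference was -6.01 points at hyperplasia, -10.4 at adenoma/MIN, -8.15 at early carcinoma and -8.94 at late carcinoma. Of the 11437 gene bodies tested, 32.8% were called lower and 10.6% higher, so a lower body was common in the genome. The cluster in intron 2, 148786 bp upstream of the internal TSS (chr14:16724208-16724316, 11 positions), differed by -13.5 ± 2.60 points (limma, adjusted p = 2.23e-04), and that in intron 1, 47306 bp after the distal TSS (chr14:17034966-17035083), by -6.73 ± 1.05. A further cluster of intron 2, 228190 bp upstream and also chosen after its values were seen, read 77.6 to 89.8% in PyMT and 91.4 to 94.2% in FVB mice (-6.53 ± 1.21 points). At the intron 2 cluster the FVB mice read 58.4 to 74.3% and the PyMT mice 44.2 to 63.0%, and 7 of the 10 PyMT mice lay below all FVB mice. Its difference of -4.34 points at week 6 did not pass the test (limma, adjusted p = 0.676), that of -19.6 points at week 8 did (adjusted p = 0.00610), that of -12.4 points at week 10 did not (adjusted p = 0.0564) and that of -17.7 points at week 12 did (adjusted p = 0.0205).

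The steepest losses of Rarb were at single positions, chosen after their values were seen. The position 4469 bp upstream of the internal TSS (chr14:16579945, mean coverage 40.0 reads) read 3.85 to 36.4% in PyMT mice and 56.7 to 92.9% in FVB mice. Its differences were -41.4, -68.0, -70.6 and -55.8 points from week 6 to week 12. The position 223119 bp upstream (chr14:16798595) read 6.90 to 36.4% against 42.9 to 86.0%, with -43.1, -36.3, -50.3 and -50.4 points. A neighbour of the first, 4342 bp upstream, was a hypo-DMC at late carcinoma (-20.0 points) and at no other stage.

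**Figure D3:**
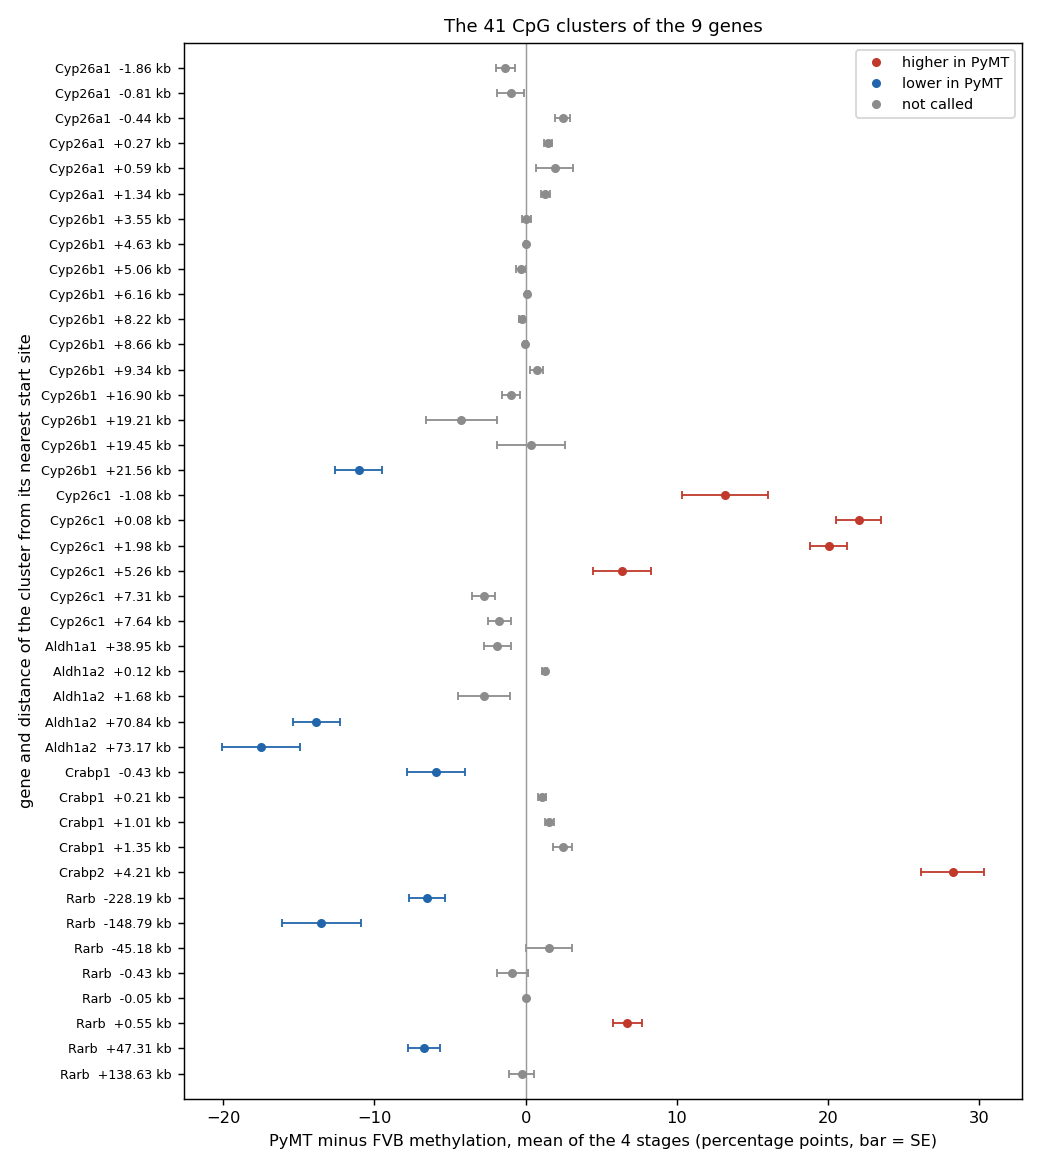
PyMT minus FVB methylation of the 41 CpG clusters, averaged over the 4 stages (percentage points, bars are SE over mice), by gene and distance from the nearest TSS in kb. Red clusters were called higher in PyMT (6), blue lower (7) and grey ones were not called. The called gains lie in Cyp26c1 (4), Crabp2 and Rarb, and the called losses lie in Rarb (3), Aldh1a2 (2), Cyp26b1 and Crabp1.

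The synthesis genes gained nothing of that size. Aldh1a2, which makes retinoic acid from retinal, has a CpG island around its TSS in which 180 promoter positions averaged 1.99 to 2.58% in FVB mice and 2.30 to 4.61% in PyMT mice. The difference of 1.16 ± 0.142 points passed the adjusted test but not the limit of 5 points (limma, adjusted p = 1.16e-05; exact permutation p = 7.5e-05). It was 0.229 points at hyperplasia, 0.796 at adenoma/MIN, 1.30 at early carcinoma and 2.33 at late carcinoma. Every PyMT mouse of week 10 (3.91, 3.81 and 2.93%) and of week 12 (4.61 and 4.58%) lay above all 12 FVB mice. At week 8 the mice at 3.09 and 3.61% did and that at 2.56% did not. At week 6 the mouse at 2.65% did and that at 2.30% did not.

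The body of Aldh1a2 moved the other way. Its 10 positions averaged 74.1 to 82.4% in FVB mice and 57.6 to 72.4% in PyMT mice, with no overlap, a difference of -13.0 ± 1.31 points (limma, adjusted p = 1.15e-07). Both called clusters lie in intron 12. The first (chr9:71286564-71286695, 5 positions) differed by -13.8 ± 1.58 points, with the largest single difference at the CpG at 71286667, which read 33.6 to 57.3% in PyMT and 70.4 to 85.7% in FVB mice. The second (chr9:71288910-71289006, 3 positions) read 27.48 and 36.04% at week 6, 31.18, 36.56 and 36.81% at week 8, 24.00, 22.99 and 35.85% at week 10, and 22.19 and 23.52% at week 12 in PyMT mice, against 37.2 to 56.1% in FVB mice. Its difference was -17.5 ± 2.59 points (limma, adjusted p = 1.67e-05) and every PyMT mouse lay below every FVB mouse. By stage the carcinoma differences of -21.0 and -27.3 points passed the test, and those of -12.5 and -9.10 points before did not. Aldh1a1, the other synthesis gene, had 6 positions, all in intron 2 and at 91.5 to 98.2% in FVB mice, and its difference of -1.87 ± 0.899 points did not pass (limma, adjusted p = 0.0810). Without 1 mouse it ranged from -2.67 points (without PyMT week 12 replicate 3, limma, adjusted p = 0.0291) to -1.08 points (without PyMT week 12 replicate 1, adjusted p = 0.251).

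The remaining carrier and the uptake receptor were thinly covered or changed little. Crabp1, which binds retinoic acid in the cytoplasm, averaged 4.72 to 6.40% over 32 promoter positions in FVB mice and 4.27 to 8.28% in PyMT mice, a difference of 0.584 ± 0.419 points (limma, adjusted p = 0.397) that turned to -1.24 points over the positions within 500 bp of the TSS. Its cluster 435 bp before the TSS (chr9:54764267-54764359) was called lower at -5.92 ± 1.90 points (limma, adjusted p = 0.0208), and the call was lost without PyMT week 12 replicate 3 (-5.07 points, adjusted p = 0.0695). Clusters 208, 1006 and 1352 bp after the TSS differed by 1.10, 1.57 and 2.45 points. They passed the adjusted test but not the limit of 5 points (limma, adjusted p of 0.00218, 1.36e-04 and 0.0017). Stra6, the membrane receptor for retinol, had 4 positions and entered none of the fits. The position at chr9:58129515, 166 bp after a TSS and chosen after its values were seen, read 26.1 to 52.6% in FVB mice and 5.88 to 23.3% in PyMT mice, with no overlap. It was a hypo-DMC at each stage, at -24.4, -26.9, -28.9 and -30.6 points.

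Counted by position, a differentially methylated cytosine (DMC) had a q-value under 0.01 in a logistic regression of reads on transgene status and a pooled difference of at least 10 points. The members held 16 hyper-DMCs at hyperplasia, 29 at adenoma/MIN, 37 at early carcinoma and 63 at late carcinoma. These were 2.58, 4.68, 5.98 and 10.2% of the 619 positions. The same calls took in 2.62, 3.20, 4.39 and 4.44% of all 1140639 positions. The test takes reads as replicates, and the member counts fell to 7, 9, 26 and 46 with an overdispersion correction and to 1, 8, 16 and 23 with limma on the percent of each mouse. Of the 16, 29, 37 and 63 hyper-DMCs, Cyp26c1 supplied 11, 23, 27 and 39. In the other 8 genes 0.935, 1.12, 1.87 and 4.49% of 535 positions were hyper-DMCs. Outside Cyp26c1 the share was thus under that of all positions up to early carcinoma and near it at late carcinoma. Control level was not matched in this comparison. In FVB mice 74.8% of the members lay under 10%, against 64.0% of all positions. At that level 4.32% of the members and 1.59% of all positions were hyper-DMCs at late carcinoma. The members held 23, 21, 28 and 28 hypo-DMCs (3.72, 3.39, 4.52 and 4.52%), where 6.01, 7.10, 8.42 and 8.53% of all positions were called. Control level was not matched for these hypo shares either. At late carcinoma 1 of 463 members under 10% in FVB mice was a hypo-DMC (0.216%, against 0.047% of all positions of that level). At 10 to 80% it was 17 of 102 members (16.667%, against 28.859%), and over 80% it was 10 of 54 (18.519%, against 19.002%). Without FVB week 8 replicate 2 the adenoma/MIN counts were 25 hyper (4.04%, against 2.51% of all positions) and 19 hypo (3.07%, against 5.83%). Without PyMT week 8 replicate 1 they were also 25 and 19, against 3.07 and 7.07% of all positions. The hyperplasia counts moved to 25 hyper without PyMT week 6 replicate 2 (4.04%, against 2.67%). They moved to 14 hypo without PyMT week 6 replicate 1 (2.26%, against 4.13%). Late carcinoma moved to 17 hypo without PyMT week 12 replicate 1 (2.75%, against 6.51%).

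**Figure D4:**
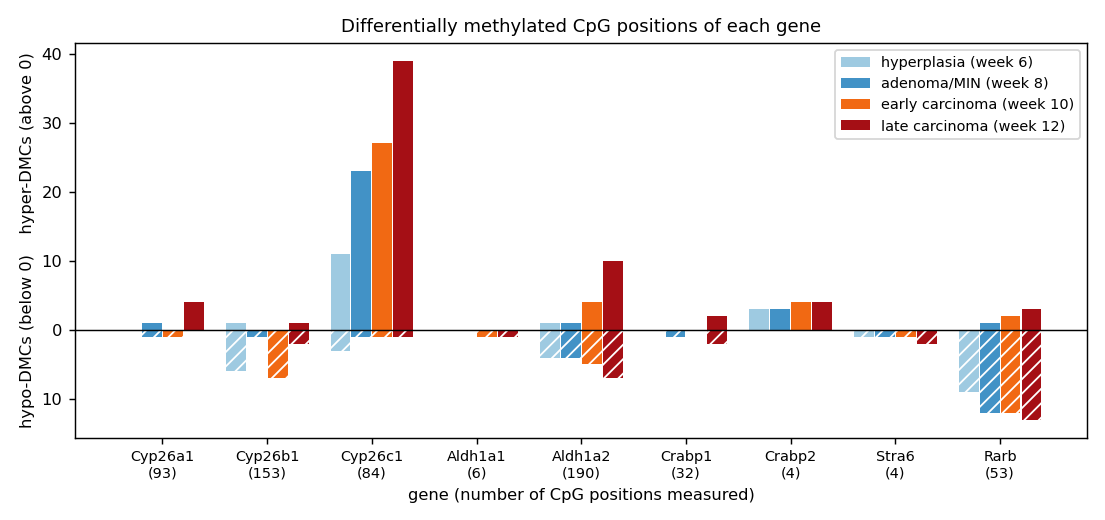
Number of hyper-DMCs (bars above 0) and hypo-DMCs (hatched bars below 0) in each gene at each of the 4 stages, with the number of positions measured under each name. Cyp26c1 goes from 11 to 39 hyper-DMCs between weeks 6 and 12, and Rarb holds 9 to 13 hypo-DMCs at every stage.

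Of the 619 positions, 499 were called at no stage (80.6%, against 79.7% of all positions). At all stages 13 were hyper-DMCs (2.10%, against 1.05%), of which 10 lay in Cyp26c1 and 3 in Crabp2. At all stages 6 were hypo-DMCs (0.969%, against 3.27%), of which 3 lay in Rarb and 1 each in Cyp26b1, Aldh1a2 and Stra6. Control level was not matched for these shares. The level in the controls marked where calls fell. At late carcinoma 42 of 102 positions at 10 to 80% in FVB mice were hyper-DMCs (41.2%, against 18.1% of all positions of that level), whereas 20 of 463 positions under 10% were (4.32%, against 1.59%). Cyp26c1 alone held 39 of the 63 hyper-DMCs of that stage. Of its 84 positions 42 lay under 10% and 0 over 80% in FVB mice. The shares by level were not worked out without this gene. Positions in a cluster share reads and are not independent, so these shares are descriptions.

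The wider pathway was read from lists chosen for their roles. Promoters of 27 of 43 further retinoid genes were measured, of which 2 were called higher and 1 lower. Of all promoters 3.98% were called higher and 6.49% lower, and counts this small cannot be told from those shares. The median difference of the 4 lists lay between 0.036 and 0.349 points, against -0.0082 over all promoters. Among 8 genes of retinol uptake, storage and oxidation, Bco1, which cleaves carotene to retinal, went from 51.2 ± 7.43% in FVB mice to 69.2 ± 4.36% in PyMT mice (SD, n = 12 and 10; 18.2 points, limma, adjusted p = 3.86e-05), and Rdh5, a retinol dehydrogenase, from 38.4 ± 5.59% to 49.3 ± 7.04% (10.7 points, adjusted p = 0.00341). Rdh10, which makes retinal from retinol, held at 0.13% in both. None of 10 other retinoid receptors and cofactors was called, with Rxrg, a partner receptor, at 1.85 ± 0.81% and 6.15 ± 1.65% (4.31 points, limma, adjusted p = 1.40e-07, under the 5-point limit). Of 8 genes that respond to retinoic acid, Hoxa5, a homeobox gene, was called lower, from 27.3 ± 7.41% to 8.51 ± 3.01% (-18.7 points, limma, adjusted p = 2.63e-06). Aldh1a3, the only other retinal dehydrogenase measured, was not called (0.274 points). Rdh10, Rxrg and Aldh1a3 were named with their values known.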

How the data were processed

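ERRBS libraries of mammary tumors and glands from 10 PyMT and 12 FVB mice were used, grouped by genotype (PyMT or FVB) and week as given in the sample labels. The authors aligned reads to mm10 with Bismark (versions not given in the sources used here) and deposited, for each CpG cytosine with at least 10 reads, the coverage as a read count and the percent of reads that were methylated or unmethylated, with strands apart and mice not pooled. From these, methylated reads were recovered as coverage times percent.

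Genes and TSS were taken from curated RefSeq transcripts of GRCm38.p6, the assembly of mm10. At each week a logistic regression of reads on transgene status was tested by likelihood ratio over all 1140639 positions, with Benjamini-Hochberg q-values. This test takes reads, not mice, as replicates. The percent of the promoters, gene bodies and CpG clusters with at least 3 positions was averaged per mouse, converted to log2((percent + 1)/(101 - percent)) and fitted with limma 3.58.1 (R 4.3.3) over the 8 groups, with Benjamini-Hochberg adjustment over all regions of a kind. Differences and SE are in percentage points and come from the same model on untransformed percent, with the spread of each region alone. The p-values come from the fit on transformed values, in which limma shares the spread between regions. Regions were called at adjusted p under 0.05 and at least 5 points. Two-sided exact permutation tests were run for the 11 member regions, without adjustment. Position tests ran in SciPy 1.17.1 under Python 3.11.15, tables were joined with pandas 2.3.3 on NumPy 2.4.6, and plots were drawn with matplotlib 3.10.9. The tests were checked on simulated data.

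Named clusters were up to 2 called clusters per gene with the largest differences, with 1 position each, and for the other lists up to 4 called genes each. Members and lists were chosen with earlier results of these data known. P-values of the limma fits and the permutation tests measure the spread between these mice. The q-values of the logistic regression rest on reads summed over the mice of a group. The result of 1 leukocyte marker is not reported here. No 2 replicates agreed within sampling noise. The alternatives tried were the coverage minimum, strands joined, other thresholds, offsets, windows, gaps and transcript sets, pooled reads, other tests, the replicate number as a block and leaving out each mouse.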

Additional observations from a re-analysis of the deposited data

Results flagged for a closer look

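A pair of results differed between stages. The promoter of Cyp26c1 showed a wider PyMT minus FVB difference at the carcinoma stages than at the earlier stages, by 10.57 points (limma interaction contrast, adjusted p = 0.0209), with every PyMT mouse of weeks 10 and 12 (64.60 to 69.37%) above every PyMT mouse of weeks 6 and 8 (55.35 to 60.63%). The call was lost without either of 2 mice, PyMT week 12 replicate 1 or PyMT week 6 replicate 2, with pooled reads, with the replicate block and within 500 bp of the TSS, where the change was 6.287 points. The promoter window of Cyp26c1 includes part of its intron 3 cluster. A Cyp26b1 cluster in the coding part of exon 7 (chr6:84574300-84574418, 8 positions) lay higher in each PyMT than in each FVB mouse at week 8 (3.78 points) and lower in each at week 10 (-5.33 points), and the 9.117-point gap between the weeks was not tested. It was the 1 such case among 52 regions examined for opposite directions in a pair of weeks, and its difference over the 4 stages was 0.364 points (limma, adjusted p = 0.911). Groups of 2 or 3 mice were too small for a search for outlying mice.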

How the results depend on the processing

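Position counts depended on the threshold and on how the spread between mice entered the test. From hyperplasia to late carcinoma, the 16, 29, 37 and 63 hyper-DMCs became 9, 9, 18 and 25 with a minimum of 25 points, 7, 9, 26 and 46 with an overdispersion correction, and 1, 8, 16 and 23 with limma on the percent of each mouse. Of all positions 0.854, 1.05, 1.55 and 1.82%, 0.883, 1.22, 2.39 and 2.53%, and 0.227, 0.698, 1.38 and 1.29% were hyper-DMCs in these settings. The 23, 21, 28 and 28 hypo-DMCs became 5, 8, 8 and 10, then 12, 7, 14 and 17, then 1, 5, 7 and 6, against 2.81, 3.12, 4.05 and 4.57%, 2.52, 3.06, 5.22 and 5.14%, and 0.788, 2.01, 3.26 and 2.68% of all positions. With calls limited to groups that did not overlap, an alternative chosen after seeing the data, hypo-DMCs at adenoma/MIN were 13 (2.10%, against 5.50% of all positions). Without 1 mouse, hyper-DMCs ranged from 11 to 25 at hyperplasia, 24 to 31, 33 to 42 and 49 to 59 at late carcinoma, and hypo-DMCs from 14 to 22, 19 to 28, 20 to 28 and 17 to 26. The called clusters ranged from 5 to 6 higher and 6 to 7 lower, and 4 were lower by at least 10 points. For the carcinoma minus the earlier stages no member cluster was called by limma (9 had an unadjusted p under 0.05), 0 without any 1 mouse, and 1 was called higher (Cyp26c1 intron 3) on untransformed percent and with an offset of 5 points. Without 1 mouse the Cyp26c1 promoter difference ranged from 19.15 to 19.96 points, the Crabp2 body from 27.02 to 29.44, the Aldh1a2 body from -13.85 to -12.2 and the Rarb body from -8.704 to -8.054. The widening at the Cyp26c1 promoter ranged from 9.767 to 11.4 points without 1 mouse, and was not past the threshold with pooled reads (12.71 points, limma adjusted p = 0.105), a 500 bp window (6.287, 0.381) or the replicate block (10.22, 0.258). The directions of the Crabp1 and Rarb promoters turned within 500 bp (-1.242 and -0.3923 points). The cause of these shifts was not tested. Of 125 other values for single regions 113 kept their call, 7 lost it and 3 gained it, and with 1 mouse left out 423 of 440 kept it.

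Mice with the same number in the same week did not deviate together (r of -0.0404 to 0.0248 over 10 pairs, none over 0.1). In groups this small, these correlations cannot settle whether the numbers mark a shared batch. The sample labels do not say, and a shared batch was not tested. With the replicate block hyper-DMCs were 16, 29, 39 and 58 (2.58, 4.68, 6.30 and 9.37%, against 2.07, 3.07, 4.26 and 4.08% of all positions). Hypo-DMCs were 16, 22, 28 and 19 (2.58, 3.55, 4.52 and 3.07%, against 4.90, 6.86, 8.21 and 7.74%). With the same block the Crabp1 upstream cluster was not past the threshold (-5.22 points, limma adjusted p = 0.111). Promoters of Cyp26b1, Aldh1a1 and Crabp2 had no position covered in all mice, and clusters at a coverage of 20 to 28 reads resolve only large differences.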
